A study of Homo sapiens with 12 samples.

Results

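The MYC, MAX and MXD network is a set of transcription factors of the basic helix-loop-helix leucine zipper class. MYC binds DNA as a pair with MAX, and the pair activates genes of growth, nucleotide synthesis and ribosome assembly. MAX also pairs with MXD1, MXD3, MXD4, MXI1, MNT and MGA, which repress many of the genes that the MYC and MAX pair activates. MLX is a relative of MAX that pairs with MLXIP (also called MondoA), a factor that answers to glucose metabolites, and with some MXD proteins and MNT. High MYC is a common feature of aggressive B cell lymphomas. The 10 genes described here (MYC, MAX, MXD1, MXD3, MXD4, MXI1, MNT, MGA, MLX and MLXIP) were chosen by name, and all 10 were found among the 25369 rows of each deposited table.

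RNA was sequenced in 2 human lines of diffuse large B cell lymphoma: OCI-Ly7, which the labels class as germinal centre B cell-like (GCB), and TMD8, which they class as activated B cell-like (ABC). Each line carried a guide RNA against PRMT5, the main symmetric arginine methyltransferase, that doxycycline switches on. Doxycycline was given at 20 ng/ml for 0, 3 or 6 days, with 2 libraries per line and day, so the 12 libraries formed 6 groups. The day 6 and day 3 groups of each line were compared with day 0 of the same line, whose cells carry the guide as well, so doxycycline itself and loss of PRMT5 cannot be told apart. Neither a line without the guide nor a guide against another target was analysed here, and nothing states whether the 2 libraries of a day came from separate cultures, so p-values measure the spread between these libraries, which may be technical.

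Values are FPKM, a fragment density corrected for transcript length and library size, as the authors computed it. Libraries summed to 397477 to 467844 FPKM, with 10092 to 11021 genes at 1 FPKM or more. The depth in fragments is unknown, so low values carry no counting interval. B cell markers were present in both lines (summed FPKM 755 to 1246 in OCI-Ly7 and 472 to 654 in TMD8). Markers of T and NK cells and of myeloid cells summed to under 1 FPKM in each of the 12 libraries, with CD3D, CD3E, LYZ and MPO listed at 0. Of the stromal and epithelial markers, VIM stood at 0.163 FPKM or less in OCI-Ly7 and at 156 to 233 FPKM in TMD8, and EPCAM stood at 3.90 to 5.91 FPKM in OCI-Ly7 and was listed at 0 in TMD8. Of the defining genes of the subtypes, BCL6 (41.9 to 60.3 FPKM in OCI-Ly7) and MME (6.72 to 10.8 FPKM) were present in OCI-Ly7, whereas SERPINA9 was listed at 0 and LMO2 stood at 0.144 FPKM or less there. SERPINA9 (4.31 to 12.9 FPKM) and LMO2 (17.1 to 40.0 FPKM), which mark the germinal centre subtype, were present in TMD8. BCL6 was lower in TMD8 (7.56 to 12.9 FPKM), and MME stood at 0.0226 FPKM or less there. MYBL1, of the same subtype, was higher in OCI-Ly7 (5.88 to 8.15 FPKM) than in TMD8 (0.586 to 1.98 FPKM). S1PR2, also of that subtype, overlapped between the lines (1.25 to 2.27 FPKM in OCI-Ly7 and 1.99 to 3.64 FPKM in TMD8). Of 6 genes of the activated subtype, IRF4 was lower in OCI-Ly7 (65.4 to 88.9 FPKM) than in TMD8 (244 to 461 FPKM), and CCND2 likewise. FOXP1 was higher in OCI-Ly7 (11.8 to 22.1 FPKM) than in TMD8 (4.09 to 7.05 FPKM), and BATF, PIM1 and PIM2 overlapped between the lines. PRMT5 transcript stood at 21.0 and 19.2 FPKM at day 6 and at 37.9 and 46.9 FPKM at day 0 in OCI-Ly7 (log2 change -1.04, adjusted p = 0.0345). In TMD8 the libraries held 64.8 and 60.5 FPKM of PRMT5 at day 0, then 41.3 and 42.0 FPKM at day 3, followed by 49.6 and 54.7 FPKM at day 6. It was thus lowest at day 3 there (log2 change against day 0 -0.58, adjusted p = 0.0212; -0.28 after scaling between libraries, adjusted p = 0.147). At day 6 its change against day 0 was -0.26 (adjusted p = 0.0262; 0.10 after scaling, adjusted p = 0.201), and against day 3 it was 0.32 (adjusted p = 0.0553; 0.37 after scaling, adjusted p = 0.021). The transcript does not show how much PRMT5 protein was lost, since edited transcripts may persist.

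Changes are given on the log2(FPKM + 1) scale with adjusted p-values from limma over all genes that averaged 1 FPKM or more in the line, and a change passed where its adjusted p was under 0.05. This scale understates the changes of low genes. In bulk RNA a change in some of the cells and a smaller change in every cell cannot be told apart. The median change over all genes tested was -0.13 at day 6 and -0.12 at day 3 in OCI-Ly7, and -0.31 and -0.27 in TMD8. Changes are therefore also given after median-ratio scaling for the main results, and wherever scaling moved one across the threshold. Median-ratio scaling divides each library by the median ratio of its genes and so sets a change relative to the median gene.

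The DNA element that MYC and MAX, MXD and MAX, and MLX pairs all bind is the E-box CACGTG. It reads the same on both strands. In the RefSeq promoter set on GRCh38.p14, which spans 250 bases before to 50 bases after each gene's start, 2548 of 35116 promoters hold CACGTG (7.26%). Of the 10 network genes, 9 had promoters in that set. MYC had none in it, so its promoter was not searched. CACGTG lies in 3 of the 14 promoters of the 9 genes, those of MNT, MLX and MXD4. The stretches around it are shown with that of ODC1, a classical MYC target that encodes ornithine decarboxylase, to place the element in promoters of the network itself and of a target described further on. The motif is in capitals. It starts 193 bases before the annotated start of MNT, 50 before that of MLX, 238 before that of MXD4 and 29 before that of ODC1. The stretches are chr17:2401221-2401280 on the minus strand for MNT, chr17:42567023-42567082 on the plus strand for MLX, chr4:2262315-2262359 on the minus strand for MXD4 and chr2:10448013-10448068 on the minus strand for ODC1.
MNT: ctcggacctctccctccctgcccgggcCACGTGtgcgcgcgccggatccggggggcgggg
MLX: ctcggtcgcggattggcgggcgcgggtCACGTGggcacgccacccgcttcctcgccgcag
MXD4: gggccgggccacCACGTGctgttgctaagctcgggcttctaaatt
ODC1: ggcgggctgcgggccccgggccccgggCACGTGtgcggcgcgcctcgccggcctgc
The match is a description of these letters, and binding was not measured. The deposited tables were made on hg19 and hold no coordinates, so these positions belong to the RefSeq set alone.

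MYC transcript was lower at day 6 in both lines. The OCI-Ly7 libraries held 117 and 115 FPKM of MYC at day 0, then 107 and 89.6 FPKM at day 3 and 72.1 and 69.8 FPKM at day 6. The TMD8 libraries held 88.8 and 82.8 FPKM at day 0, then 62.1 and 63.2 FPKM at day 3 and 41.3 and 53.8 FPKM at day 6. In each line both day 6 libraries lay below both day 3 libraries, and those below both day 0 libraries. MYC averaged 71.0 ± 1.6 FPKM at day 6 and 116 ± 1.6 FPKM at day 0 in OCI-Ly7 (SD, n = 2 each; log2 change -0.70, SE 0.112, adjusted p = 0.0345), and passed after scaling (-0.55, adjusted p = 0.0235). In TMD8 it averaged 47.6 ± 8.8 FPKM at day 6 and 85.8 ± 4.2 FPKM at day 0 (SD, n = 2 each; log2 change -0.85, SE 0.123, adjusted p = 0.00383), and passed after scaling (-0.49, adjusted p = 0.0194). No difference between the changes of the lines was detected (OCI-Ly7 minus TMD8 0.15, SE 0.176, adjusted p = 0.561; -0.06 after scaling, adjusted p = 0.712). In TMD8 the fall of MYC passed in each of 6 fits that left out 1 library (-1.03 to -0.66), but after scaling in 4 of 6 (adjusted p up to 0.104). In OCI-Ly7 the size held within -0.73 to -0.68, but the test was not passed without either day 0 library (adjusted p = 0.132 and 0.247) or either day 6 library (adjusted p = 0.0779 and 0.136), and after scaling it was passed in 1 of 6 fits (-0.57 to -0.53).

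At day 3 MYC passed in TMD8 (log2 change -0.45, SE 0.123, adjusted p = 0.0358), but not after scaling (-0.15, adjusted p = 0.578). In OCI-Ly7 its day 3 change was -0.25 (adjusted p = 0.618). Between day 6 and day 3 MYC changed by -0.46 in OCI-Ly7 (adjusted p = 0.0975), which passed after scaling (-0.44, adjusted p = 0.0356), and by -0.40 in TMD8 (adjusted p = 0.0944; -0.35 after scaling, adjusted p = 0.0692). Its paralogue MYCN was listed at 0 in all 12 libraries. MYCL stood between 1.37 and 1.78 FPKM in the 6 OCI-Ly7 libraries and between 0.192 and 0.430 FPKM in TMD8. MYC was therefore the only one of the 3 paralogues above 2 FPKM in any library.

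**Figure D1:**
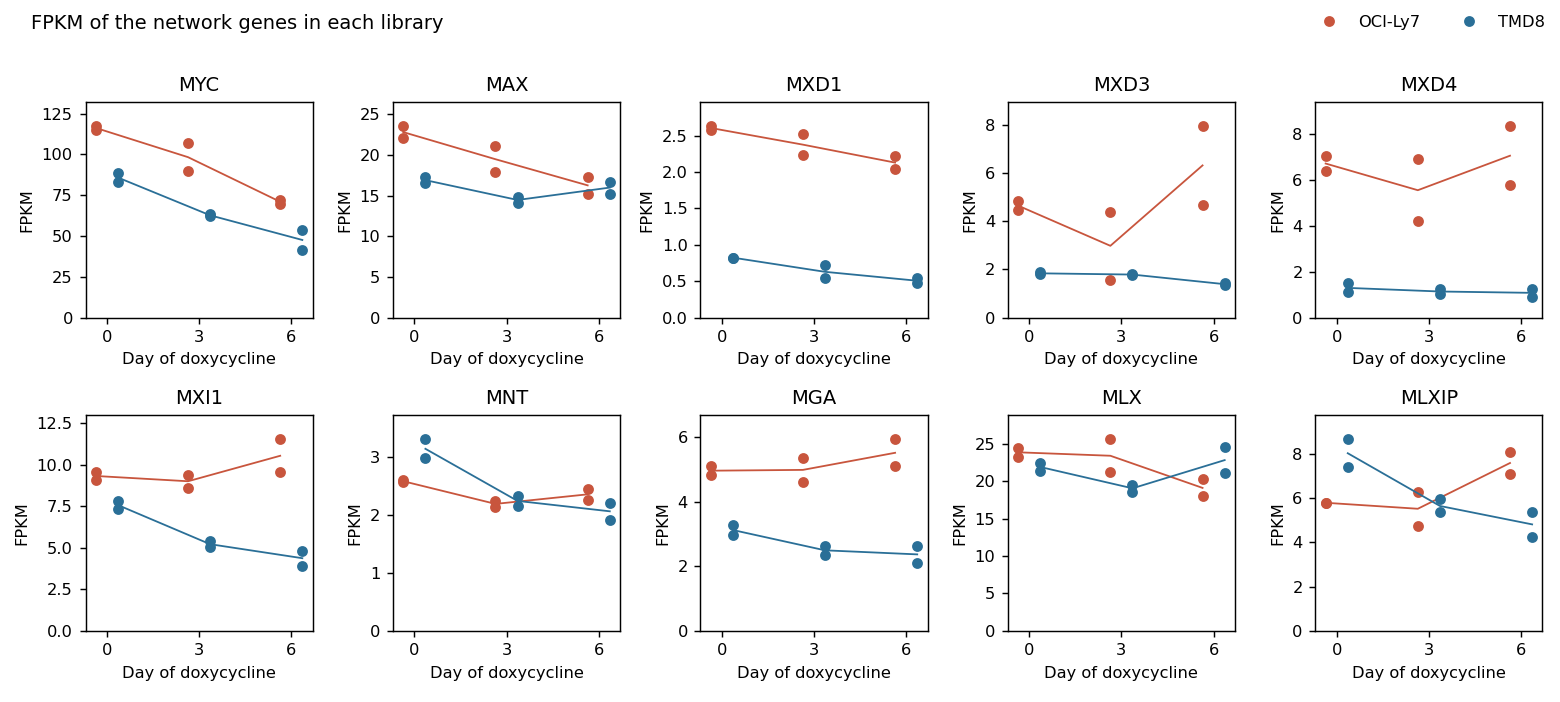
FPKM (vertical axes, each from 0) of the 10 network genes by day of doxycycline, in OCI-Ly7 (red) and TMD8 (blue); each point is 1 library and lines join the means of 2 libraries. MYC is lower at day 6 in both lines, whereas MXI1 and MLXIP are lower at day 6 in TMD8 alone on the FPKM as given, and the OCI-Ly7 libraries spread widely for MXD3 and MXD4.

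Of the 10 network genes, 1 fell (MYC) and 0 rose at day 6 in OCI-Ly7, where 9.39% of all genes tested fell and 1.98% rose. In TMD8, 9 of the 10 reached the mean of 1 FPKM, and 4 of these fell (MYC, MXI1, MNT and MLXIP) and 0 rose, where 51.7% of all genes tested fell and 3.89% rose. After scaling, MYC fell and 0 rose in OCI-Ly7 (8.05% of all genes fell and 6.71% rose). In TMD8 MYC alone fell (13.5% of all genes fell), while MAX and MLX rose (15.4% of all genes rose). The median change of the tested members was -0.02 in OCI-Ly7 and -0.30 in TMD8, beside -0.13 and -0.31 over all genes. At day 3, 0 of 10 passed in OCI-Ly7 (0.145% of all genes; 0 of 10 also at an unadjusted p under 0.05) and 4 of 9 fell in TMD8 (MYC, MXI1, MNT and MLXIP; 41.5% of all genes fell and 43% passed in either direction), of which 0 passed after scaling (0.22% of all genes) or without any 1 of the 4 libraries of days 0 and 3. Between day 6 and day 3 none passed in limma on FPKM as given in either line (0.218% of all genes in OCI-Ly7 and 7.84% in TMD8), with 2 in each line at an unadjusted p under 0.05. After scaling MYC passed downward in OCI-Ly7 (4.52% of all genes) and MLX upward in TMD8 (0.30, adjusted p = 0.0423; 6.56% of all genes), each in 0 of 6 scaled fits without 1 library.

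MAX, the partner that MYC needs to bind DNA, did not pass in either line on FPKM as given, and after scaling its changes in the lines differed. In OCI-Ly7 MAX stood at 17.3 and 15.2 FPKM at day 6 and at 22.0 and 23.5 FPKM at day 0, with both day 6 libraries lower (log2 change -0.47, SE 0.122, adjusted p = 0.0635; -0.32 after scaling, adjusted p = 0.0527). The TMD8 values were 15.2 and 16.7 FPKM at day 6 and 17.3 and 16.5 FPKM at day 0, and these values overlap (log2 change -0.08, SE 0.077, adjusted p = 0.419). After scaling MAX was higher at day 6 in TMD8 (0.27, adjusted p = 0.0193), a change that passed in 4 of 6 fits without 1 library. The difference, OCI-Ly7 minus TMD8, was -0.39 (adjusted p = 0.0738), and passed after scaling (-0.59, adjusted p = 0.00249).

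Among the MXD genes, MXI1 changed differently in the lines. MXI1 had the highest FPKM of the 4 MXD genes in all 12 libraries. The OCI-Ly7 libraries held 9.08 and 9.56 FPKM of MXI1 at day 0, then 9.40 and 8.60 FPKM at day 3 and 11.5 and 9.54 FPKM at day 6, with overlap between days 6 and 0 (day 6 log2 change 0.16, SE 0.119, adjusted p = 0.396; 0.29 after scaling, adjusted p = 0.0869). Those of TMD8 held 7.34 and 7.79 FPKM at day 0, then 5.41 and 5.02 FPKM at day 3 and 4.82 and 3.92 FPKM at day 6, without overlap between any 2 days. It fell at day 6 in TMD8 (log2 change -0.68, SE 0.108, adjusted p = 0.00484) and in each of the 6 fits without 1 library (-0.80 to -0.56). After scaling the fall did not pass (-0.37, adjusted p = 0.0799). The difference itself, OCI-Ly7 minus TMD8, was 0.83 (SE 0.161, adjusted p = 0.00908), and it passed after scaling (0.66, adjusted p = 0.0188) and in each of 12 fits without 1 library (0.71 to 0.96).

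MXD1, MXD3 and MXD4, which with MXI1 recruit the SIN3 corepressor, passed in neither line. MXD1 stood at 2.22 and 2.04 FPKM at day 6 and 2.63 and 2.58 FPKM at day 0 in OCI-Ly7 (log2 change -0.20, adjusted p = 0.239). In TMD8 MXD1 stood at 0.541 and 0.472 FPKM at day 6 and 0.823 and 0.825 FPKM at day 0, under the mean of 1 FPKM that the test asked for. With no filter it was lower there (-0.28, adjusted p = 0.0402), as were 5399 of 15696 genes in that fit. After median-ratio scaling MXD1 averaged 0.56 ± 0.084 FPKM at day 6 and 0.70 ± 0.028 FPKM at day 0 in TMD8 (SD, n = 2 each), which was not tested. In OCI-Ly7 the libraries held 4.84 and 4.44 FPKM of MXD3 at day 0, then 4.38 and 1.57 FPKM at day 3 and 7.94 and 4.68 FPKM at day 6, so libraries of the same day lay far apart at days 3 and 6 (day 6 log2 change 0.34, adjusted p = 0.565). In TMD8 MXD3 stood at 1.43 and 1.35 FPKM at day 6, below the 1.88 and 1.79 FPKM of day 0 (-0.25, adjusted p = 0.0628; -0.02 after scaling). MXD3 shares exon sequence with RAB24 on the same strand and with PRELID1 on the other, MXD1 with SNRNP27 and MXD4 with MIR4800, and the library kit does not mark strand, so the values of these genes are uncertain. MAX, MXI1, MNT and MGA share exon sequence with noncoding genes on the other strand that have no row in the tables, and are uncertain in the same way. MXD4 overlapped between day 6 and day 0 in both lines (8.34 and 5.76 against 7.03 and 6.39 FPKM in OCI-Ly7; 0.897 and 1.26 against 1.10 and 1.49 FPKM in TMD8).

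MNT, an MXD-like repressor expressed in dividing and resting cells, fell in TMD8 on FPKM as given. It stood at 2.45 and 2.27 FPKM at day 6 and 2.57 and 2.60 FPKM at day 0 in OCI-Ly7 (log2 change -0.09, adjusted p = 0.549; 0.01 after scaling). In TMD8 MNT stood at 1.92 and 2.21 FPKM at day 6 and 3.31 and 2.98 FPKM at day 0 (-0.44, SE 0.103, adjusted p = 0.0146), a change that did not pass after scaling (-0.17, adjusted p = 0.145), nor without the first day 0 library (-0.38, adjusted p = 0.103) or the first day 6 library (-0.37, adjusted p = 0.0509). MGA, a large protein that pairs with MAX inside a Polycomb complex of the PRC1.6 type, stood at 5.10 and 5.94 FPKM at day 6 and 4.81 and 5.11 FPKM at day 0 in OCI-Ly7 (0.13, adjusted p = 0.486). In TMD8 MGA stood at 2.10 and 2.64 FPKM at day 6 and 3.26 and 2.98 FPKM at day 0 (-0.30, adjusted p = 0.0714; -0.03 after scaling). The differences between the lines did not pass for MNT (0.34, adjusted p = 0.0694) or MGA (0.42, adjusted p = 0.0864).

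MLXIP, too, changed differently in the lines. The OCI-Ly7 libraries held 5.79 FPKM of MLXIP each at day 0, then 6.28 and 4.76 FPKM at day 3 and 7.11 and 8.07 FPKM at day 6, so both day 6 libraries were the highest (log2 change 0.34, SE 0.140, adjusted p = 0.156; 0.47 after scaling, adjusted p = 0.0513). The TMD8 values were 8.67 and 7.40 FPKM at day 0, then 5.35 and 5.94 FPKM at day 3 and 4.24 and 5.39 FPKM at day 6, with both later days below day 0. It fell at day 6 in TMD8 (-0.64, SE 0.130, adjusted p = 0.00948), though not after scaling (-0.33, adjusted p = 0.065) or without the first day 0 library (-0.54, adjusted p = 0.0654). The difference, OCI-Ly7 minus TMD8, was 0.98 (SE 0.201, adjusted p = 0.0113), passed after scaling (0.79, adjusted p = 0.00786) and passed in each of 12 fits without 1 library (0.83 to 1.12). MLX stood at 18.0 and 20.3 FPKM at day 6 and 23.3 and 24.5 FPKM at day 0 in OCI-Ly7 (-0.31, adjusted p = 0.151; -0.16 after scaling). In TMD8 MLX stood at 21.1 and 24.6 FPKM at day 6 and 22.5 and 21.4 FPKM at day 0 (0.05, adjusted p = 0.629), and was higher after scaling (0.40, adjusted p = 0.0133), which passed in 4 of 6 fits without 1 library. Its difference between the lines was -0.36 (adjusted p = 0.119), and passed after scaling (-0.56, adjusted p = 0.00889). MLX shares exon sequence with PSMC3IP on the other strand, so its values are uncertain.

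**Figure D2:**
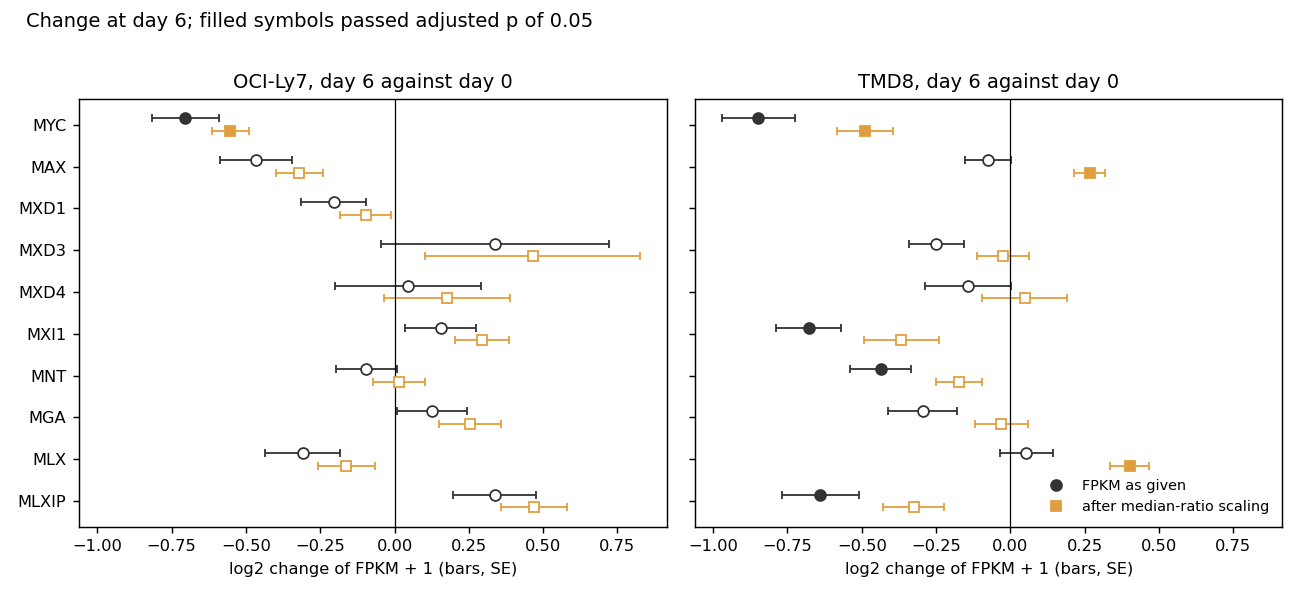
Change at day 6 against day 0 (horizontal axis, log2 of FPKM + 1) of the network genes in OCI-Ly7 (left) and TMD8 (right), on FPKM as given (black circles) and after median-ratio scaling (orange squares); bars are standard errors and filled symbols passed an adjusted p of 0.05. MYC passed on both scales in both lines, and in TMD8 the falls of MXI1, MNT and MLXIP passed only as given whereas the rises of MAX and MLX passed only after scaling; MXD1 was not tested in TMD8.

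By the test of the difference between lines, 2 of 10 network genes changed more upward in OCI-Ly7 than in TMD8 at day 6 (MXI1 and MLXIP) and 0 less, where 19.5% and 5.93% of 11144 genes did. After scaling 2 were higher (15.1% of genes) and 2 lower (MAX and MLX; 17.2% of genes). The median difference was 0.26 for the members and 0.18 over all genes. At day 3 no member differed between the lines in limma (0.0987% of all genes), with 1 at an unadjusted p under 0.05 as given and 0 after scaling.

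The order of mean levels was alike at the top in both lines. MYC was highest, followed by MLX and MAX, in all 6 groups, although MLX and MAX overlapped at day 0 in OCI-Ly7. In TMD8 MLXIP and MXI1 came next at each day and overlapped each other. In OCI-Ly7 MXI1 came next at each day, above MXD4 and MLXIP, which overlapped at days 3 and 6. MXD1 was lowest in TMD8 at each day, below MXD4. In OCI-Ly7 MXD1 and MNT had the lowest means, overlapping at days 0 and 3, although MXD3 at 1.57 FPKM in the second day 3 library lay below both. The lines were in separate tables, so levels set across lines rest on the authors' FPKM alone.

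Ratios of 2 genes within a library do not depend on scaling between libraries. With 2 libraries a day an exact permutation test of a ratio between 2 days cannot pass, and no trend over the days was tested, so ratios are given as values. The summed FPKM of the 6 MAX partners other than MYC (MXD1, MXD3, MXD4, MXI1, MNT and MGA) amounted in OCI-Ly7 to 26.4% and 26.7% of MYC at day 0, then 28.8% and 26.1% at day 3, followed by 52.1% and 43.3% at day 6. In TMD8 it amounted to 20.0% and 21.6% at day 0, then 22.3% and 20.8% at day 3, followed by 28.3% and 22.0% at day 6. Both day 6 libraries of OCI-Ly7 lay above every other library of either line, and those of TMD8 lay above their day 0 and reached over their day 3 in 1 library. The sum itself stood at 37.6 and 30.2 FPKM at day 6 and 31.0 and 30.7 FPKM at day 0 in OCI-Ly7, and at 11.7 and 11.8 FPKM at day 6 and 17.7 and 17.9 FPKM at day 0 in TMD8. The sum thus overlapped between these days in OCI-Ly7, where MYC was lower, and was lower together with MYC in TMD8.

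MAX relative to MYC stood further apart between days in TMD8. MAX amounted in OCI-Ly7 to 22.9% ± 1.5 of MYC at day 6 and 19.6% ± 1.2 at day 0, and in TMD8 to 34.0% ± 4.1 at day 6 and 19.7% ± 0.37 at day 0 (SD, n = 2 each). The ratio of MYC to MAX was 5.32 and 4.89 at day 0 in OCI-Ly7, then 5.08 and 5.01 at day 3, followed by 4.17 and 4.59 at day 6. In TMD8 the ratio was 5.14 and 5.01 at day 0, then 4.20 and 4.47 at day 3, followed by 2.71 and 3.22 at day 6, so each later day lay below the earlier one. MLX amounted in OCI-Ly7 to 26.99% ± 2.9 of MYC at day 6 and 20.6% ± 0.98 at day 0, and in TMD8 to 48.4% ± 3.8 at day 6 and 25.6% ± 0.31 at day 0 (SD, n = 2 each). Relative to MAX, MXI1 stood in OCI-Ly7 at 64.7% ± 2.9 at day 6 and 40.9% ± 0.39 at day 0, and in TMD8 at 27.5% ± 5.8 at day 6 and 44.9% ± 3.2 at day 0 (SD, n = 2 each), so it stood higher at day 6 than at day 0 in OCI-Ly7 and lower in TMD8.

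**Figure D3:**
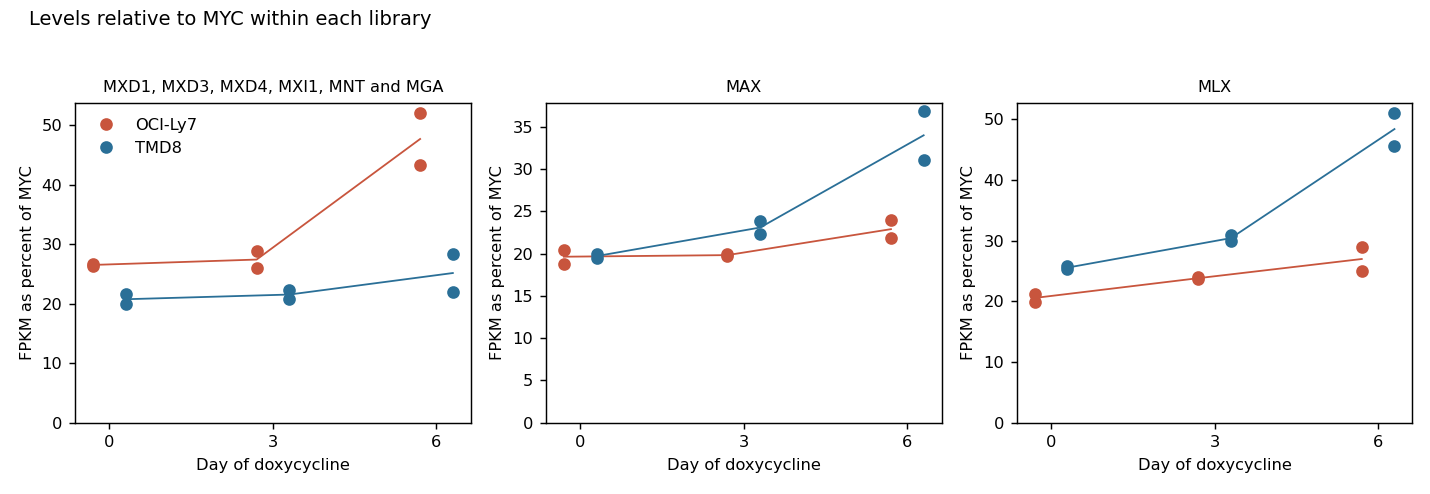
FPKM as a percentage of MYC in the same library (vertical axes, from 0) by day of doxycycline, for the sum of MXD1, MXD3, MXD4, MXI1, MNT and MGA (left), for MAX (middle) and for MLX (right); points are libraries of OCI-Ly7 (red) and TMD8 (blue), and lines join means. The summed partners reach 52.1% and 43.3% at day 6 in OCI-Ly7, while MAX and MLX stand highest at day 6 in TMD8.

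Of 34 genes known to be activated by MYC and tested in OCI-Ly7, 18 fell and 0 rose at day 6, where 9.39% of all genes fell. The median change of the 34 was -0.58 against -0.13 over all genes. After scaling 18 fell and 0 rose (8.05% of all genes fell). In TMD8, 10 of 35 fell and 1 rose (NME1, 0.19, adjusted p = 0.0308), where 51.7% of all genes fell and 3.89% rose, with a median of -0.15 against -0.31 over all genes. After scaling 17 rose and 2 fell in TMD8, with a median of 0.21 (15.4% of all genes rose and 13.5% fell). By the test of the difference, 16 of 35 changed more downward in OCI-Ly7 than in TMD8 and 1 (DNPH1) more upward, with a median of -0.43 against 0.18 over all genes (5.93% of all genes changed more downward and 19.5% more upward). After scaling 25 were more downward in OCI-Ly7 and 1 more upward (17.2% and 15.1% of all genes). Both counts include EIF4A1, which was listed at 0 in 1 library, and the 35 include CCND2, which was tested through its TMD8 level alone. Without these genes 15 of 33 were more downward, and 24 after scaling. The list was written with earlier results of these data known, and 4 of its genes (ODC1, NOLC1, MRTO4 and WDR43) had been named in them. Without these 4, 14 of 30 fell in OCI-Ly7, and 12 of 31 differed downward and 1 upward, or 11 of 29 downward without EIF4A1 and CCND2 as well.

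These counts rest on few libraries and on the filter. In OCI-Ly7 the count of falls was 0 with no filter on low values, 0 without either day 0 library and 1 without either day 6 library, while the median stayed between -0.64 and -0.53. The count of genes more downward in OCI-Ly7 by the test of the difference stayed between 8 and 17 in the 12 fits without 1 library, with 8 without the second day 0 library of TMD8 and 9 without that of OCI-Ly7.

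ODC1, whose E-box is shown above, stood in OCI-Ly7 at 76.8 and 59.8 FPKM at day 6 and at 129 and 130 FPKM at day 0 (log2 change -0.92, SE 0.148, adjusted p = 0.0345). The TMD8 values were 241 and 254 FPKM at day 6 and 285 and 273 FPKM at day 0 (-0.17, SE 0.058, adjusted p = 0.0454), and the change was positive after scaling (0.19, adjusted p = 0.0444). Its difference between the lines was -0.75 (adjusted p = 0.0135). Among the other genes lower in OCI-Ly7 were HSPD1, a mitochondrial chaperonin (-0.97, adjusted p = 0.0345), AHCY, which clears S-adenosylhomocysteine, the product of methyltransferases (-0.89, adjusted p = 0.0345), and NCL, nucleolin (-0.77, adjusted p = 0.0357). In TMD8 the change of HSPD1 was -0.02 (adjusted p = 0.800; 0.34 after scaling, adjusted p = 0.0257), that of AHCY -0.04 (adjusted p = 0.572; 0.32 after scaling, adjusted p = 0.0162) and that of NCL -0.34 (adjusted p = 0.0515; 0.02 after scaling). The falls that were largest in TMD8 were those of DNPH1, a nucleotide hydrolase (-0.86, adjusted p = 0.00159), CAD, the first enzyme of pyrimidine synthesis (-0.74, adjusted p = 0.00535), and PTMA, prothymosin alpha (-0.59, adjusted p = 0.00337; -0.22 after scaling, adjusted p = 0.13). EIF4A1, an RNA helicase of translation initiation, stood at 39.0 FPKM and was listed at 0 in the day 6 libraries of OCI-Ly7, against 540 and 591 FPKM at day 0. An exact 0 beside such values can be a failed estimate, so no size is given for its change.

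**Figure D4:**
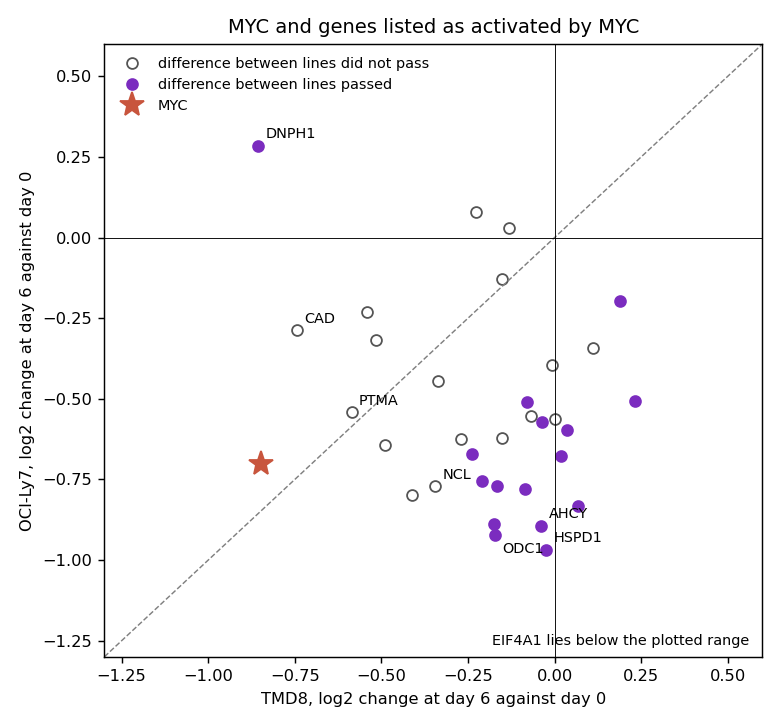
Change at day 6 against day 0 on FPKM as given (log2 of FPKM + 1) in OCI-Ly7 (vertical axis) and TMD8 (horizontal axis) for the genes listed as activated by MYC and tested in both lines, with the dashed line marking equal change; filled points passed the test of the difference between lines, and the star is MYC. Of the genes whose difference passed, DNPH1 alone lies above the dashed line, while MYC lies close to it; EIF4A1, with a day 6 library of OCI-Ly7 listed at 0, lies below the plotted range.

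CACGTG lies in a promoter of 17 of the 30 MYC-activated genes matched to the RefSeq set, against 8.77% of all genes in it. In OCI-Ly7, 11 of the 16 tested genes with it fell (median -0.62), and 6 of the 13 without it (median -0.62). After scaling 10 of the 16 with it fell there (median -0.47), and 7 of the 13 without it (median -0.47). Over all genes in OCI-Ly7, 9.39% fell as given and 8.05% after scaling. In TMD8, 5 of 16 with it fell and 1 rose (median -0.08), and 4 of 13 without it fell (median -0.16). After scaling, 11 of 16 with it rose and 1 fell in TMD8 (median 0.27), and 5 of 13 without it rose and 1 fell (median 0.19). Over all genes in TMD8, 51.7% fell and 3.89% rose as given, and 13.5% fell and 15.4% rose after scaling.

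Of the corepressor, PRC1.6, coactivator and protein turnover genes, fewer passed as given in OCI-Ly7 than in TMD8, where 11.4% and 55.6% of all genes passed. Among all genes tested in OCI-Ly7, 9.39% fell and 1.98% rose (8.05% and 6.71% after scaling). Among those in TMD8, 51.7% fell and 3.89% rose (13.5% and 15.4% after scaling). Of 16 SIN3 and HDAC corepressor genes, which serve the MXD proteins, 1 rose and 2 fell in OCI-Ly7 (as many after scaling) and 10 fell in TMD8 (3 after scaling, with 2 higher). NCOR1, a nuclear receptor corepressor, moved in opposite directions: it stood at 14.4 and 14.98 FPKM at day 6 and 7.21 and 7.59 FPKM at day 0 in OCI-Ly7 (log2 change 0.90, adjusted p = 0.0345), and at 9.01 and 11.4 FPKM at day 6 and 16.5 and 14.8 FPKM at day 0 in TMD8 (-0.58, adjusted p = 0.00945; -0.24 after scaling, adjusted p = 0.0813). RBBP7, a histone chaperone of these complexes, fell in OCI-Ly7 (-0.48, adjusted p = 0.0408) and in TMD8 (-1.01, adjusted p = 0.00146). SIN3A changed by -0.42 in OCI-Ly7 (adjusted p = 0.0638) and fell in TMD8 (-0.54, adjusted p = 0.00387), and SIN3B changed by 0.14 in OCI-Ly7 (adjusted p = 0.549) and fell in TMD8 (-0.38, adjusted p = 0.0401; -0.06 after scaling).

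Of the PRC1.6 genes that hold MGA, 3 of 11 fell in OCI-Ly7 (2 after scaling, with 1 higher) and 6 of 12 in TMD8 (1 after scaling, with 1 higher). Beside this count and those below, 9.39% of all genes fell in OCI-Ly7 and 51.7% in TMD8. After scaling 8.05% fell and 6.71% rose in OCI-Ly7, and 13.5% fell and 15.4% rose in TMD8. TFDP1, the partner of the E2F proteins, fell in OCI-Ly7 (-1.0, adjusted p = 0.0345) and in TMD8 (-0.32, adjusted p = 0.0333; 0.04 after scaling). Of 13 MYC coactivator genes, 2 fell in OCI-Ly7 (RUVBL1, -0.58, adjusted p = 0.0412, and ACTL6A, -0.40, adjusted p = 0.0461; after scaling ACTL6A had an adjusted p of 0.0566) and 9 in TMD8 (2 after scaling, with 1 higher). Of 14 genes of MYC protein turnover, 4 fell in OCI-Ly7 (2 after scaling) and 8 in TMD8 (3 after scaling, with 1 higher). SKP2, a ubiquitin ligase subunit, fell in OCI-Ly7 (-0.70, adjusted p = 0.0345). FBXW7, the ligase subunit that recognises phosphorylated MYC, changed by 0.38 in OCI-Ly7 (adjusted p = 0.125) and -0.18 in TMD8 (adjusted p = 0.198).

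Of 7 genes that MYC represses, 1 rose in OCI-Ly7 (GADD45B, 0.71, adjusted p = 0.0345; 2 rose after scaling) and 0 fell. In TMD8, 1 of the 7 rose (GADD45A, 0.62, adjusted p = 0.00312) and 4 fell, but 3 rose and 1 fell after scaling. NDRG2 fell there as given (-0.64, adjusted p = 0.00426) and after scaling (-0.38, adjusted p = 0.0342). CCNG2 fell there as given (-0.56, adjusted p = 0.0173), but did not pass after scaling (-0.31, adjusted p = 0.192). Over all genes tested in TMD8, 3.89% rose and 51.7% fell as given, and 15.4% rose and 13.5% fell after scaling. Over all genes tested in OCI-Ly7, 1.98% rose and 9.39% fell as given, and 6.71% rose and 8.05% fell after scaling. GADD45A and GADD45B are stress-response genes. Of 5 other genes of the network, 3 were tested in OCI-Ly7 and 0 passed, and of 2 tested in TMD8, ZBTB17, a partner of MYC in repression, fell (-0.47, adjusted p = 0.0034; -0.12 after scaling, adjusted p = 0.211). Of 5 targets of MLXIP and MLX, 1 fell in each line: KLF10 in OCI-Ly7 (-0.67, adjusted p = 0.0347) and PFKFB3, a regulator of glycolysis, in TMD8 (-0.56, adjusted p = 0.0081; -0.27 after scaling, adjusted p = 0.0529). TXNIP, the best known target of MLXIP, stood in OCI-Ly7 at 24.4 and 23.4 FPKM at day 6 and 23.7 and 27.4 FPKM at day 0 (adjusted p = 0.591), and in TMD8 at 8.61 and 8.65 FPKM at day 6 and 9.14 and 9.30 FPKM at day 0 (adjusted p = 0.346; 0.24 after scaling, adjusted p = 0.0495).

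Over the 12 libraries, after scaling and centring on each line, the genes most like MYC among 9688 were GTF3C2, a subunit of the RNA polymerase III factor TFIIIC (Pearson r 0.98), FAM81A (0.97), UBAP2L (0.97), POLR2A, the largest subunit of RNA polymerase II (0.96), and SMAD5 (0.96). These values share the days of treatment and the libraries and are a description. POLR2A stood at 13.5 FPKM at day 6 and 28.9 FPKM at day 0 on average in OCI-Ly7, and at 20.1 and 41.6 FPKM in TMD8. Of the network genes ranked none came near: r was 0.33 for MNT, 0.16 for MAX, -0.12 for MXI1, -0.15 for MLX and -0.19 for MLXIP. It was -0.23 for MXD4, -0.34 for MXD3 and -0.40 for MGA, and MXD1 was not ranked.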

How the data were processed

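Per the labels' protocols, RNA was taken from cultured cells with RNeasy Plus mini kits and made into libraries with the Illumina TruSeq RNA kit. Per the submitters' processing notes, HISAT, StringTie and hg19 were used, and no versions are given in the sources used here. From these, the authors deposited 1 table of FPKM per line with 25369 rows keyed by symbol, of which 28 rows have names in the form of dates. Groups follow the titles, characteristics and design text (days 0, 3 and 6), since the treatment protocol names other days. Absolute depth is unknown. Relative depth was read from the low values, with day 0 replicate 1 of a line at 1. It was 0.77 to 1.3 in OCI-Ly7 and 0.54 to 1.18 in TMD8. By day it was 1 and 1.3 (day 0), 0.91 and 0.88 (day 3) and 0.8 and 0.77 (day 6) in OCI-Ly7. The TMD8 values were 1 and 1.18 (day 0), 0.54 and 0.74 (day 3) and 0.62 and 0.57 (day 6). The day 0 libraries were the deepest of each line, so day and relative depth cannot be told apart.

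From these FPKM values, log2(FPKM + 1) was tested with limma 3.58.1 (R 4.3.3, mean-dependent trend, two-sided) within each line, for genes averaging 1 FPKM or more (11016 in OCI-Ly7, 10456 in TMD8), the 3 days sharing the spread with 3 residual degrees of freedom. The difference between lines, OCI-Ly7 minus TMD8, was fitted over 12 libraries (11144 genes). The Benjamini-Hochberg adjustment ran over all genes tested (threshold 0.05), and the fit was tested on simulated data. Alternatives changed the pseudocount (0.1), the filter (none, or a mean of 5), the trend (none), the scaling (median-ratio, or equal sums), the replicate block, the days in the fit (2 alone) and the libraries (each left out); scaling together with leaving out a library, and the alternatives for MYC-activated genes (leaving out EIF4A1 and CCND2 among them), were added after the data were seen. The members and the 8 gene lists (115 genes, all found) were chosen with earlier results of these data known. Named from each list and line were up to 3 genes with the largest day 6 change among those past the threshold without overlap, plus a fixed set (such as TXNIP, ODC1, NCL, FBXW7, SIN3A and SIN3B). NME1 and EIF4A1 were added after their values were seen. Exon overlaps are from GENCODE 29, and promoters from RefSeq on GRCh38.p14, of another build than the tables, matched by symbol. Some genes of these lists are not reported here.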

Additional observations from a re-analysis of the deposited data

Results flagged for a closer look

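Among the network genes, MXI1 and MLXIP were picked out because their day 6 effects differed between the lines by a test of the difference itself. For MXI1 the effect in OCI-Ly7 minus that in TMD8 was 0.83 on the log2 scale (adjusted p = 0.00908, limma over 12 libraries). For MLXIP it was 0.98 (adjusted p = 0.0113). These are 2 of the 10 network genes, where 19.5% of 11144 genes passed in the same direction. In OCI-Ly7 both day 6 libraries of MLXIP and 1 of MXI1 lay above day 0, and in TMD8 both day 6 libraries of both genes lay below day 0. Groups of 2 libraries are too small to test a single library as an outlier.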

How the results depend on the processing

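At day 3 the count of network genes that passed stayed 0 in OCI-Ly7 and for the difference between the lines under each alternative run. In TMD8 at day 3 the 4 genes that passed became 0 with no filter, with median-ratio scaling, with an equal sum per library and with the replicate block, and 0 to 5 in fits without 1 library. In TMD8 at day 6 the count of 4 was 2 to 5 without 1 library; between day 6 and day 3 the count of 0 became 1 with median-ratio scaling and 0 to 1 without 1 library. In OCI-Ly7 at day 6 the count of 1 was 0 with no filter, 2 with a mean of at least 5 and 0 to 1 without 1 library; between day 6 and day 3 it became 1 with median-ratio scaling and with an equal sum. The 2 genes that differed between the lines at day 6 became 4 with median-ratio scaling. That scaling also changed which genes passed in TMD8 at day 6, to 1 fall (MYC) and 2 rises (MAX and MLX). MXI1, MNT and MLXIP then did not pass there. With scaling and 1 library left out together, the counts at day 6 were 0 to 1 in OCI-Ly7 and 0 to 4 in TMD8, and in TMD8 0 at day 3 and 0 to 1 between day 6 and day 3. MAX as a percentage of MYC is a ratio within a library, so scaling between libraries cannot change it and does not test it.

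For MYC-activated genes the 18 falls in OCI-Ly7 were 0 with no filter and 0 to 19 without 1 library, and the 10 falls in TMD8 were 2 with median-ratio scaling and 6 to 11 without 1 library. The 16 that differed downward were 25 with median-ratio scaling and 8 to 17 without 1 library, counts that include EIF4A1 where it passed.

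Signs of single genes turned with scaling and with leaving out a library. In TMD8 at day 6 MAX became 0.27 with median-ratio scaling and 0.00031 with an equal sum, and MXD4 became 0.049 with median-ratio scaling. In TMD8 at day 3, with median-ratio scaling and an equal sum, MAX became 0.076 (median-ratio alone), MXD3 0.17 and 0.10, MXD4 0.065 and 0.013, and MLX 0.099 and 0.0022. In OCI-Ly7 MNT at day 6 became 0.014 with median-ratio scaling, and at day 3 MXI1 became 0.071 and 0.074, MLX 0.092 and 0.095, and MLXIP 0.041 and 0.044 under both scalings. With median-ratio scaling the difference between the lines became -0.0074 for MLX at day 3 and -0.062 for MYC at day 6. Without 1 library, changes that turned sign in at least 1 fit ranged in TMD8 day 6 against day 0 from -0.051 to 0.16 for MLX. In TMD8 day 3 against day 0, they ranged from -0.22 to 0.022 for MXD4. In TMD8 day 6 against day 3, they ranged from -0.17 to 0.083 for MXD4 and -0.17 to 0.061 for MGA. In OCI-Ly7 day 6 against day 0, they ranged from -0.19 to 0.28 for MXD4. In OCI-Ly7 day 3 against day 0, they ranged from -0.57 to 0.037 for MXD4, -0.10 to 0.012 for MXI1, -0.086 to 0.094 for MGA, -0.16 to 0.099 for MLX and -0.24 to 0.10 for MLXIP. For the difference between the lines at day 3, they ranged from -0.12 to 0.10 for MAX, -0.011 to 0.15 for MXD1 and -0.47 to 0.14 for MXD4. For the difference between the lines at day 6, they ranged from -0.041 to 0.33 for MYC and -0.046 to 0.42 for MXD4. The cause was not tested.

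The labels give replicate numbers 1 and 2 in each group. Deviations of same-numbered libraries correlated weakly over genes (-0.15 to 0.13 across pairs of days), and the main fit did not pair them. Whether same-numbered libraries shared a culture or batch is not stated, and these correlations cannot settle it. Apart from TMD8 at day 3 the replicate block changed no count of network genes. The fits with no filter in OCI-Ly7 call few genes overall (41 at day 6). Unknown depth limits MXD1 and MXD4 in TMD8, whose values lay near 1 FPKM.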
